A study of Rattus norvegicus with 2 samples.

Results

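The genes described here encode the receptor tyrosine kinases Met, Axl, Mertk, Tyro3, Ddr1, Ddr2, Ntrk2 and Ret and the ligands Hgf and Gas6. They were chosen by symbol, as the probe sets (groups of array probes summarised to 1 value) whose only gene symbol in the platform annotation was one of these, and all 10 were found, each with 1 probe set, among 18166 genes with a symbol. Expression was measured in rat C6 glioma, an established line kept in medium with 10% serum, in 1 array of small molecule induced cells (SMiG) and 1 array of undifferentiated cells (C6). For SMiG, the labels of that sample give 3 agents: forskolin, which raises cyclic AMP, rapamycin, which blocks mTORC1, and I-BET151, which blocks BET bromodomains. The protocol text, which is attached to both samples, instead names CHIR99021, a GSK3 inhibitor, at 20 µM together with 100 µM forskolin over 35 days, so the agents are not settled. The series asks whether glioma cells can be turned toward a glial state by such compounds. Both groups come from 1 cell line, and the C6 sample carries no agent in its own labels. With 1 array a group there is no replicate check of any difference and no test.

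Receptor tyrosine kinases cross the cell membrane, bind a ligand outside and phosphorylate tyrosines inside, which recruits adaptors that start MAPK, PI3K and STAT signalling. MET is the receptor of hepatocyte growth factor (HGF) and is known for driving motility and invasion in gliomas. AXL, MERTK and TYRO3, the TAM receptors, bind GAS6 and protein S and are known for the clearance of dying cells and the restraint of inflammation. DDR1 and DDR2 are receptors of collagen. NTRK2 (TrkB) binds brain-derived neurotrophic factor, and RET binds ligands of the GDNF family through a co-receptor.

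Met, Ddr2 and Ntrk2 were lower in SMiG, by 5.63-fold, 5.04-fold and 2.94-fold, and Ddr1 was higher, by 2.11-fold. Mertk, at 1.97-fold higher, lay next to the 2-fold mark, and Axl was 1.48-fold higher. Tyro3 was close to the floor, which is the 95th percentile of 1341 olfactory and vomeronasal receptor genes taken as silent, 4.96 in SMiG and 4.83 in C6 on the log2 scale. Hgf, Gas6 and Ret lay below the floor on both arrays. A gene is called detected here when at least 1 array is above its floor, which held for 7 of the 10 genes, 6 of them on both arrays. Of the 7 detected, 3 (42.9%) passed 2-fold on the lower side in SMiG and 1 (14.3%) on the higher side. Over all 10942 detected genes, the share at least 2-fold lower in SMiG was 6.52%, and the share at least 2-fold higher was 3.19%. The 10 genes were picked with earlier results of these data known, so a share above that background is a description of them and no more.

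**Figure D1:**
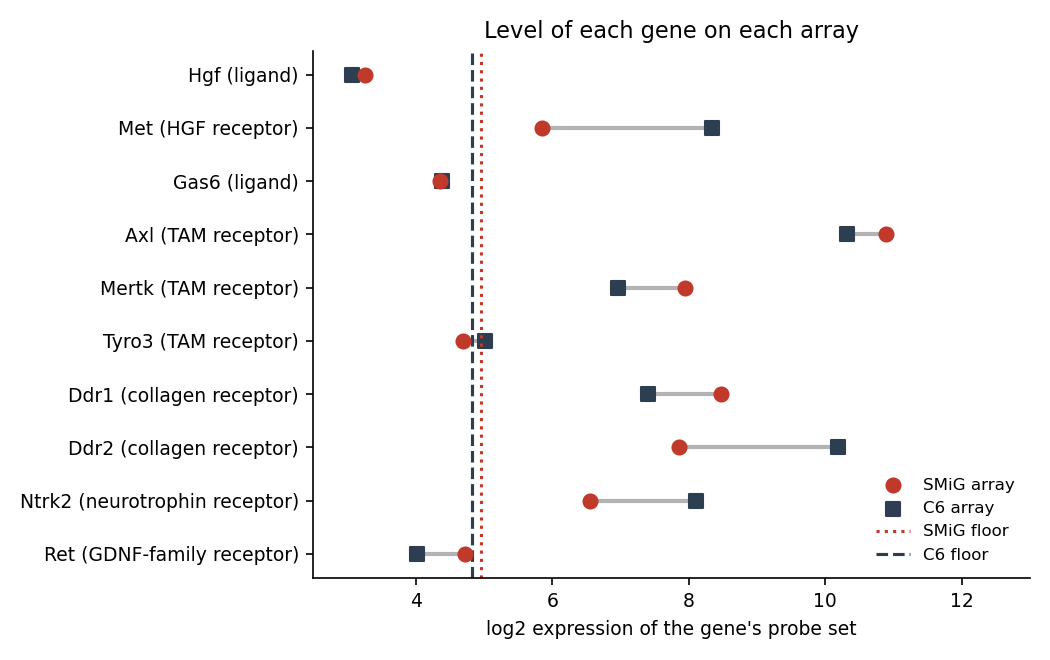
Log2 expression of each gene's probe set on the SMiG array (red circles) and the C6 array (dark squares), with a bar joining them and vertical lines at the floors of 4.96 (SMiG) and 4.83 (C6). Met, Ddr2 and Ntrk2 sit to the left in SMiG and Ddr1, Mertk and Axl to the right, while Hgf, Gas6 and Ret lie left of both lines. Positions are to be compared along a row only, since different probe sets have different brightness.

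The labelled cell type was read from marker genes. All 7 glial and glioma markers were detected. Gfap was at 5.48 in SMiG and 6.05 in C6, and Vim at 12.74 in both SMiG and C6. Sox10 was at 10.32 in SMiG and 9.30 in C6, and S100b at 10.87 in SMiG and 9.67 in C6. Of the 7, 5 had higher values in SMiG and 2 lower, with a median log2 difference, SMiG minus C6, of 0.35. Vim was among the 5 at a difference of only 0.006, and only Sox10 and S100b passed 2-fold. Since Axl and Mertk are also prominent in macrophages and microglia, the 11 markers of those cells were read beside them. They ranged from 2.76 to 5.83 in SMiG and from 2.99 to 5.85 in C6, with a summed linear level of 286 in SMiG and 300 in C6, and Ptprc, Aif1, Itgam, Csf1r, Cx3cr1 and Tyrobp did not reach the floor on either array. The 5 detected ones were Trem2 at 5.83 in SMiG and 5.85 in C6, C1qa at 5.64 in SMiG and 5.38 in C6, Tmem119 at 5.01 in SMiG and 5.82 in C6, P2ry12, at least 1.41-fold higher in SMiG, and Cd68, at least 1.33-fold lower. Their part in the Axl and Mertk values was not tested. Of 6 fibroblast markers, read because Ddr2 is prominent in mesenchymal cells, Dcn and Lum did not reach the floor on either array. The other 4 were detected, and Pdgfrb, Col1a1 and Twist2 had lower values in SMiG, Twist2 by at least 1.57-fold. Thy1 did not, at 5.30 in SMiG and 5.24 in C6. The summed linear level of the 6 was 306 in SMiG and 824 in C6, most of it Pdgfrb and Col1a1, and its part in the Ddr2 value was not tested. Of 4 endothelial markers with a probe set only Tek was detected, at 4.98 in SMiG and 5.83 in C6, and the summed level was 91.6 in SMiG and 111 in C6. Of 6 neuronal markers 3 were detected, and the summed level was 237 in SMiG and 503 in C6, with Gad1 at 6.44 in SMiG and 8.52 in C6 and Snap25 at 6.17 in SMiG and 5.65 in C6. Without Gad1 the sum was 150 in SMiG and 136 in C6. Fewer cells expressing a gene and less RNA per cell cannot be told apart in such bulk RNA. A change in total RNA per cell cannot be read either, since the sorted values of the deposited columns differ by a median of only 0.036.

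Sequence around annotated starts is shown for Met, which had the largest difference of the 10, and for Ddr1 and Mertk. Those 2 had the highest positive differences among the 7 detected of the 10 genes. RefSeq windows of GRCr8, from 250 bases before to 50 bases after an annotated start, matched 8 of the 10 genes. Ddr2 and Ntrk2 are named only. The Met window is chr4:46784496-46784795 on the plus strand, the Mertk window chr3:136392324-136392623 on the plus strand, and Ddr1 has 2 annotated starts on the plus strand, with windows chr20:3048737-3049036 and chr20:3050156-3050455. Capitals mark GC boxes (GGGCGG on either strand), the only one of 4 searched motifs that these windows held.
Met: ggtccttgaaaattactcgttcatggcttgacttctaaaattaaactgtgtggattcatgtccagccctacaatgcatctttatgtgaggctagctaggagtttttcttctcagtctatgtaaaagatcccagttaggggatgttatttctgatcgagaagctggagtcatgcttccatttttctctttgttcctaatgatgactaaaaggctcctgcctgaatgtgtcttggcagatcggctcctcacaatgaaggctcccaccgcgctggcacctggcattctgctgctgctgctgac
Mertk: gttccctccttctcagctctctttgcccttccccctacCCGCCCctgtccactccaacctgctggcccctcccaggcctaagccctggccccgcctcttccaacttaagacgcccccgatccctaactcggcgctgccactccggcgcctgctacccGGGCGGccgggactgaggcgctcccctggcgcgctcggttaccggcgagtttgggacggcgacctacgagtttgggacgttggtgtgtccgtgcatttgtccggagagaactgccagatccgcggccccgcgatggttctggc
Ddr1 upstream start: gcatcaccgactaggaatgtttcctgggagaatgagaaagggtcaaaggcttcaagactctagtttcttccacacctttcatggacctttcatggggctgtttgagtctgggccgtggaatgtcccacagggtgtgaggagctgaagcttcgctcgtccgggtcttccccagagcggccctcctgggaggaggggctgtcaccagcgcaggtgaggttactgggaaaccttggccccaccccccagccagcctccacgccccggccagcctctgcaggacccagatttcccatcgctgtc
Ddr1 downstream start: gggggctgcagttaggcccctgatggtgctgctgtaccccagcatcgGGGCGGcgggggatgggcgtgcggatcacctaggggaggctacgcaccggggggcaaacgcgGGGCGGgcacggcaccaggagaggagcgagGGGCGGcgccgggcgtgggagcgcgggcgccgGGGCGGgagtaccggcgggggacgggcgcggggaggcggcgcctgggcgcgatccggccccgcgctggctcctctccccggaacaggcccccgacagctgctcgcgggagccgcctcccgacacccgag
The motifs were the half-site of the cAMP response element (TGACG), the AP-1 site (TGANTCA), the hypoxia response core (ACGTG) and the GC box, each searched on both strands. They do not overlap one another in the printed windows. Of 33469 windows of this length, 21.2% held the half-site, 7.33% the AP-1 site, 19.3% the hypoxia core and 33.1% the GC box. The Met window held none of the 4, the Mertk window held 2 GC boxes, and the downstream Ddr1 window held 4 and the upstream one none. GC content was 45.7% in the Met window, below the median of 51.7% over all windows, and 67.3% for Mertk. It was 60.0% for the upstream Ddr1 start and 78.7% for the downstream one. Among the windows not printed, GC content ran from 51.3% for Hgf to 81.3% for Tyro3. The Tyro3 window held 6 GC boxes, 1 half-site and 1 AP-1 site, and the Ret window, at 74.0%, held none of the 4. In the Met window the 50 bases after the annotated start begin with atg, the letters of a start codon. Whether that window holds the Met promoter was not tested, so its GC content and lack of motifs are not to be read as promoter traits. The letters describe these windows only, and other starts of the same genes were not analysed here.

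The HGF receptor gene Met stood at 5.85 in SMiG and 8.34 in C6, a log2 difference, SMiG minus C6 here and throughout, of −2.49. Its difference was the 72nd lowest of the 10942 detected genes. In SMiG it remained 0.89 above the floor, so the gene was dim there but measured. Its ligand gene Hgf, at 3.26 in SMiG and 3.06 in C6, did not reach the floor on either array and is given no fold. The detected genes outside the lists used here whose difference over the 2 arrays came nearest to that of Met were Parp8 at −2.50, Mgst2 at −2.49 and Plxdc2 at −2.50.

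Genes that process HGF or set the level and activity of MET were mostly within 2-fold. Of 13 with a probe set, 7 were detected, with 1 past 2-fold on the higher side in SMiG and none on the lower side, and the median log2 difference was 0.06, against −0.01 over all detected genes. The exception was Lrig1, encoding a membrane protein known to lower the level of MET and ERBB receptors, at 8.52 in SMiG and 6.54 in C6, 3.94-fold higher. Ptpn1, encoding a tyrosine phosphatase that acts on MET, was at 7.89 in SMiG and 7.21 in C6. Itgb4, encoding the integrin beta-4 subunit, was above its floor only in C6, at 4.90 in SMiG and 5.36 in C6. The co-receptor gene Cd44 stood at 9.15 in SMiG and 9.09 in C6. The genes of the HGF-activating proteases Hpn and St14, of urokinase (Plau) and of the inhibitor Spint1 did not reach the floor on either array. Nor did those of the MET-related receptor Mst1r and its ligand Mst1. By contrast, Hgfac, encoding the HGF activator protease, and Spint2, encoding another inhibitor, were above the floor on both arrays. Their differences were 0.05 and 0.22, and Hgfac lay only 0.09 above the floor in SMiG.

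Among the TAM receptors, the 2 genes that were clearly above the floor were both higher in SMiG. Axl stood at 10.89 in SMiG and 10.33 in C6, a log2 difference of 0.56, the 1220th highest of the detected genes. Mertk stood at 7.95 in SMiG and 6.97 in C6, a log2 difference of 0.98, the 373rd highest. Mertk was within 2-fold on the deposited values but past it, at 1.02 after quantile normalization and 1.01 after removal of a trend with signal. Tyro3 was at 4.69 in SMiG, below the floor, and at 5.02 in C6, 0.19 above it, which gives a bound of only at least 1.04-fold lower. It counted as detected through C6 alone, which favours a negative difference.

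The ligand genes of the TAM receptors gave contrasting readings. Gas6 was at 4.35 in SMiG and 4.39 in C6, below the floor on both arrays. Pros1, encoding protein S, which activates MERTK and TYRO3, was at 8.29 in SMiG and 6.85 in C6, 2.71-fold higher. Both ligands need carboxylation that depends on vitamin K, and the genes of that step were detected on both arrays and within 2-fold, Ggcx at −0.11, Vkorc1 at 0.46 and Vkorc1l1 at 0.22. Adam17, encoding a protease that sheds the outer part of AXL and MERTK, was at 9.87 in SMiG and 8.90 in C6, 1.95-fold higher. Socs1, encoding an inhibitor of cytokine signalling, was at 6.78 in SMiG and 7.37 in C6. The bridging protein gene Mfge8, which serves the clearance of dying cells beside the TAM ligands, was at 11.64 in SMiG and 11.48 in C6. Of 10 genes of the TAM list with a probe set 9 were detected, with 1 past 2-fold on the higher side, none on the lower side and a median of 0.24.

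The 2 collagen receptor genes went opposite ways. Ddr1 stood at 8.47 in SMiG and 7.40 in C6, a log2 difference of 1.08, just past the 2-fold mark. Ddr2 stood at 7.86 in SMiG and 10.19 in C6, a log2 difference of −2.33, the 95th lowest of the detected genes. All 4 values were well above the floor, and the differences of the 2 genes lay 3.41 log2 units apart. DDR1 is known chiefly from epithelia and glia, where it also binds the collagen IV of basement membranes, and DDR2 from mesenchymal cells, where it binds fibrillar collagens.

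Collagen genes, which encode candidate ligands of DDR1, DDR2 or both, were also split. Of 14 with a probe set 12 were detected, with 4 past 2-fold on the lower side in SMiG, 1 on the higher side and a median of −0.20. The chain gene Col8a1 was at 5.68 in SMiG and 8.56 in C6, 7.39-fold lower. Col6a2 was at 6.26 in SMiG and 7.97 in C6, 3.27-fold lower. Both remained above the floor in SMiG, unlike Col6a3, at 4.57 in SMiG and 5.95 in C6, which was at least 1.98-fold lower. With Col6a3 at that bound, 3 collagen genes in place of 4 passed 2-fold on the lower side. Col1a1, a chain of the main fibrillar collagen, was at 7.25 in SMiG and 8.40 in C6, 2.23-fold lower. In the other direction, Col5a3, a chain of fibrillar collagen V, was at 10.26 in SMiG and 7.80 in C6, 5.49-fold higher. The basement membrane chains Col4a1 and Col4a2 were within 2-fold, with differences of 0.20 and 0.80. Col5a1, with 2 probe sets, had differences of 0.25 and 0.77. Col10a1, whose product is a ligand of DDR2, was below the floor on both arrays.

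The neurotrophin receptor gene Ntrk2 stood at 6.55 in SMiG and 8.11 in C6, a log2 difference of −1.56, and was above the floor on both arrays. NTRK2 exists with and without its kinase domain, the short form being typical of astrocytes, and a single probe set value does not separate the forms. Its ligand gene Bdnf was below the floor on both arrays, at 4.71 in SMiG and 4.81 in C6, as was Ntf3, at 3.78 in SMiG and 3.73 in C6. Ntf4, another ligand gene, was above the floor only in SMiG, at 5.21 in SMiG and 4.82 in C6. Ngfr, encoding the low-affinity receptor p75, was at 6.95 in SMiG and 7.59 in C6, 1.56-fold lower. The sorting receptor gene Sort1, encoding sortilin, was at 10.05 in SMiG and 9.04 in C6, 2.02-fold higher, and the related Sorcs2 was 1.78-fold higher. Of 8 genes of this list with a probe set 6 were detected, with 1 past 2-fold on the higher side, none on the lower side and a median of 0.33.

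The receptor gene Ret was below the floor on both arrays, at 4.72 in SMiG and 4.02 in C6. In SMiG it lay just below the floor of 4.96, and no fold is given. Its co-receptor gene Gfra1 stood at 9.37 in SMiG and 9.43 in C6, whereas Gfra2, Gfra3 and Gfral did not reach the floor on either array. The ligand gene Gdnf was at 6.05 in SMiG and 7.10 in C6, 2.06-fold lower, which is near enough to the mark that quantile normalization left no gene of this list past it. Artn was at 5.38 in SMiG and 5.03 in C6, and Gfra4, above the floor only in SMiG, was at least 1.20-fold higher. Of 11 genes with a probe set 7 were detected, with 1 past 2-fold on the lower side, none on the higher side and a median of 0.06.

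**Figure D2:**
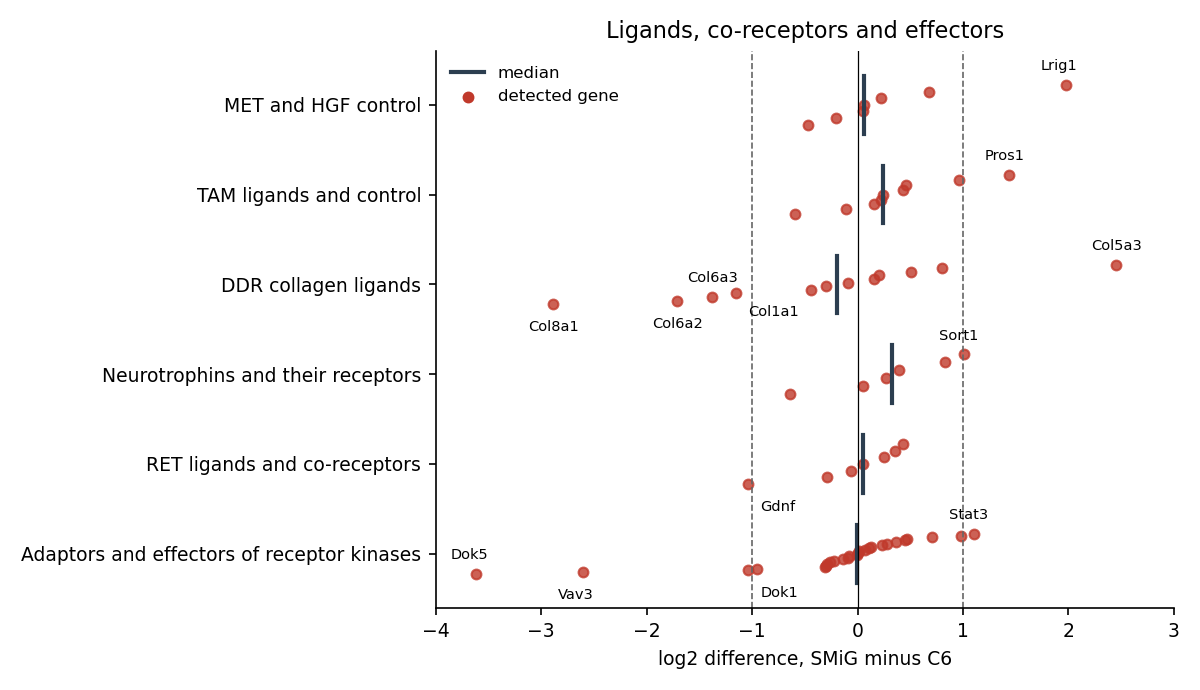
Log2 difference, SMiG minus C6, of each detected gene (points) in the lists of ligands, co-receptors, controls and effectors, with the median of each list as a vertical bar and dashed lines at 2-fold. Medians run from −0.20 for the collagens to 0.33 for the neurotrophin list, and the genes past 2-fold are labelled, with Dok5 and Col8a1 farthest to the left and Col5a3 farthest to the right.

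Adaptors and effectors that many receptor kinases share were centred on no difference. Of 30 genes 26 were detected, with 3 past 2-fold on the lower side in SMiG, 1 on the higher side and a median of −0.004. Dok5, encoding an adaptor that binds RET and neurotrophin receptors, was at 4.75 in SMiG, below the floor, and at 8.37 in C6, at least 10.6-fold lower. Vav3, encoding a guanine nucleotide exchange factor, was at 5.32 in SMiG and 7.93 in C6, 6.10-fold lower. Dok1, encoding an adaptor that dampens kinase signals, was at 7.12 in SMiG and 8.16 in C6, 2.05-fold lower. Stat3, encoding a transcription factor that MET and other receptors activate, was at 9.65 in SMiG and 8.55 in C6, 2.15-fold higher. The core adaptor genes Grb2 and Shc1 differed by 0.07 and −0.31, and Gab1, encoding the main docking protein of MET, by 0.71.

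Set among the receptor tyrosine kinases as a class, the differences of these genes covered most of the range. With the 8 receptors included, 53 such kinase genes had a probe set and 35 were detected. Among those above the floor on both arrays, Met had the lowest difference, followed by Pdgfrb, a PDGF receptor gene, at −2.36, Ddr2, Alk at −2.03 and Ntrk2. Flt1, at least 2.82-fold lower, was below the floor in SMiG, so its place in this order is not settled. Ddr1 was the sixth highest, Mertk the eighth highest and Axl the 11th highest. The kinase genes above Ddr1 were Fgfr3, Ror1, Ephb2, Aatk and Igf1r, with differences of 1.84 to 1.14. Of the 28 detected kinases outside the 10 genes, 4 passed 2-fold on the lower side in SMiG and 5 on the higher side, and the median was 0.05. Pdgfra at −1.17 was the fourth of those lower. Differences were not tested, and the order of neighbours such as Pdgfrb and Ddr2, 0.03 apart, is within the SD of 0.32 that the silent genes show between the arrays.

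**Figure D3:**
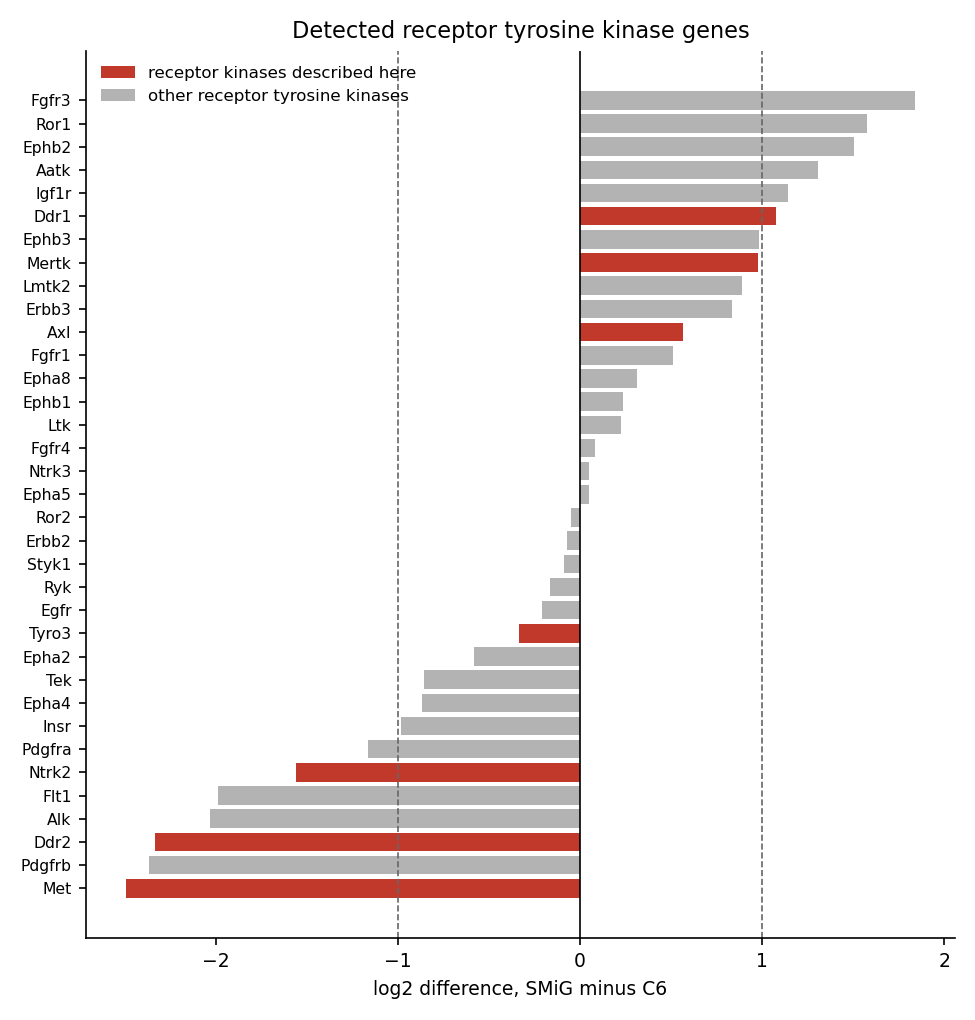
Log2 difference, SMiG minus C6, of the 35 detected receptor tyrosine kinase genes, ordered from the highest at the top to the lowest at the bottom, with the kinases described here in red, all others in grey and dashed lines at 2-fold. Bars show measured values. Those of Flt1, Epha4, Tyro3, Egfr and Ntrk3 rest on an SMiG value below the floor, and that of Ephb1 on a C6 value below it. Met, Ddr2 and Ntrk2 lie toward the low end and Ddr1, Mertk and Axl above Fgfr1.

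**Figure D4:**
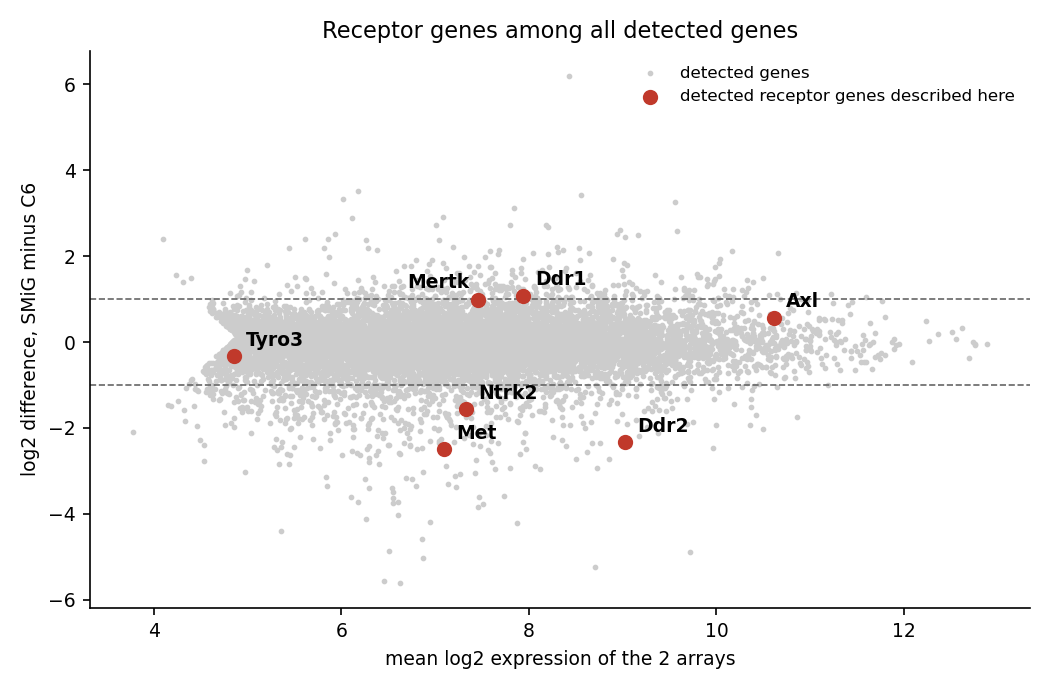
Log2 difference, SMiG minus C6, against the mean log2 expression of the 2 arrays for the 10942 detected genes (grey) and the 7 detected receptor genes (red, named), with dashed lines at 2-fold. Met, Ddr2 and Ntrk2 lie below the lower line, Ddr1 just above the upper line and Mertk just under it.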

How the data were processed

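Total RNA was made into sense cDNA, fragmented and biotin-labelled for a GeneChip array, per the labels' protocols. The authors deposited 1 log2 value per probe set and array, 36685 in all. The log base was read from the values, whose maximum of 13.09 exceeds 11.09, the natural log of the highest 16-bit reading. How background, scaling and probe summary were handled is not given in the sources used here. Any fold could depend on those steps, and the values were left as deposited. The column medians were 4.86 (SMiG) and 4.84 (C6).

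Genes were named from the platform annotation, where 18511 probe sets had 1 symbol, 575 several and 17599 none. Only the first kind was used. Probe sets of 1 gene were averaged. The 10 genes were matched to RefSeq by gene number with the same symbol in 10 cases. Listed genes such as Plxnb1, Ptprj, Tub, Adam10, Col6a1, Sh2b1, Kdr, Ptk7, Ephb4, Lmtk3 and Pecam1 lacked a probe set that names them alone and are not analysed here.

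The floor was the 95th percentile of the olfactory and vomeronasal receptor genes, of which 77 of 1341 counted as detected. Of those silent genes, 10 (0.746%) passed 2-fold, and their differences had an SD of 0.32. Where the dimmer array was below its floor, the fold is the brighter value over that floor, given as at least that fold. Counts use the measured values. Across 178 detected genes with 2 probe sets, the paired log2 differences lay a median of 0.23 apart. No p-value was computed, and the number of arrays limits the precision.

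From each of 7 lists the text names the detected genes past 2-fold, further ones by size up to 3, and some of the direct ligands or co-receptors, which could be named whatever their value. The other genes named, among them those of carboxylation, the clearance protein, collagen IV and V chains, the HGF proteases and shared adaptors, were chosen after their values were seen. The genes and lists were chosen with earlier results of these data known. The counting was tested on simulated data. Alternatives were centring, a lowess trend (span 0.3), quantile normalization, the brightest probe set, each probe set alone, a floor at the 99th percentile or none, and 1.5-fold and 4-fold thresholds. Raising dim values to the floor was a choice made after seeing the data. Python 3.11.15, numpy 2.4.6, pandas 2.3.3, statsmodels 0.14.6 and matplotlib 3.10.9 were used.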

Additional observations from a re-analysis of the deposited data

How the results depend on the processing

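No paired analysis was possible because each group had 1 array. The differences of Met (−2.49 to −2.46), Ddr2 (−2.34 to −2.31), Ntrk2 (−1.56 to −1.52), Ddr1 (1.08 to 1.12), Mertk (0.98 to 1.02) and Axl (0.55 to 0.59) kept their sign under each alternative scaling. Each of these genes has 1 probe set and lies above the floor on both arrays. The choice of probe set and the raising of dim values to the floor therefore could not change their differences. The count of the 10 genes at least 2-fold higher was 2 in place of 1 with the lowess trend removed and with quantile normalization, where Mertk passed, and also at 1.5-fold; it was 0 at 4-fold. The count at least 2-fold lower was 3 under each alternative except the 4-fold threshold, where it was 2. Over all detected genes the counts were 1140 higher and 1650 lower at 1.5-fold, and 40 higher and 143 lower at 4-fold. With dim values set to the floor, the difference of Ret was 0.13, set by the floors alone. Under the 99th percentile floor, 6 of the 10 genes were detected, without Tyro3, and Met fell below that floor in SMiG and was at least 5.09-fold lower. Removing the lowess trend put 2 shared adaptors in place of 1 past 2-fold on the higher side, and quantile normalization put 0 genes of the RET list in place of 1 past it on the lower side. The stricter floor leaves fewer genes, and the medians were then 0.51 for the other receptor kinases, −0.55 for the RET list, 0.37 for the MET and HGF list and 0.55 for the neurotrophin list. With no floor the medians were 0.16 for the neurotrophin list, 0.03 for the collagens and −0.06 for the RET list, the last 2 with their sign turned. With the lowess trend removed the median of the other receptor kinases was −0.02, and that of the adaptors ran from −0.04 to 0.01 over the alternatives.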
